A study of Mus musculus with 6 samples.

Results

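Interferon response and antigen presentation genes were followed in RNA of tagged ribosomes from mouse thalamus. The members were the 104 gene symbols, of 32531 in the count files, that name major histocompatibility complex (MHC) genes of the H2 region and their partners, interferon receptors, STAT factors, interferon regulatory factors and named families of interferon-induced genes. The rule read the symbols alone, and it was written with earlier results of these data known. By role, they comprised 31 MHC class I heavy chains, 4 class I partners, 11 class II chains and helpers, 1 enzyme gene with an H2 name, 4 interferon receptors, 7 STAT factors, 9 interferon regulatory factors and 37 interferon-induced effectors. Roles follow the symbols, so they include some genes annotated as pseudogenes.

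The libraries came from untreated control mice of the TRAP line NIDA030, Cbln1-EGFP/Rpl10a, whose age is not stated. In translating ribosome affinity purification (TRAP), cells of a chosen kind make a ribosomal protein fused to green fluorescent protein, and antibodies to the tag pull down their ribosomes from a homogenate of the dissected tissue. Both groups thus carried the same transgene: 3 immunopurified (IP) libraries held RNA recovered with the tag, and 3 Input libraries held RNA of the thalamus homogenate, although the labels call the molecule ribosome-bound in both. The labels give the tissue as thalamus, while the deposited files are named for the parafascicular nucleus, a part of it, so how much of the thalamus Input stands for is unclear. The line is named for Cbln1, so IP weights the cells that used that transgene. Whether replicates are separate animals, and how many animals a library holds, is unknown, and a p-value here reflects the spread between libraries, which may be technical.

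Type I and type II interferons act through paired receptor chains and Janus kinases (JAK). These phosphorylate STAT factors, which enter the nucleus and, with interferon regulatory factors, switch on antiviral genes and the genes of antigen presentation. MHC class I molecules pair a heavy chain with beta-2 microglobulin and show peptides delivered by the TAP transporter, while class II molecules serve professional antigen-presenting cells. In brain, microglia and vascular cells are the classical sites of these genes, and class I genes are also made by some neurons.

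Assigned counts ranged from 45256700 to 57385828 in IP and from 23929070 to 47741219 in Input, and the 104 genes together drew 16763 to 20697 of these counts in IP and 10432 to 21198 in Input. Pan-neuronal markers were higher in IP for 11 of 14 genes and lower for 1, and of 10 markers of thalamic glutamatergic neurons 6 were higher and 2 lower. Of the cells best known for this pathway, most microglial and endothelial markers were lower. By the test given below, 23.3% of all genes tested were higher in IP and 24.3% were lower, and the marker counts stand against these shares. Of 16 microglial markers 13 were lower, with a summed level of 11.6 to 12.9 CPM (counts scaled to library size) in IP and 75.7 to 86.7 CPM in Input, and no marker was at 0 in all IP libraries. Of 14 endothelial markers 10 were lower, with 13.3 to 26.6 CPM in IP and 46.7 to 49.1 CPM in Input, and Cldn5 and Cdh5 had 0 counts in IP. All 14 astrocyte and all 12 oligodendrocyte markers were lower, with sums of 869 to 950 CPM and 364 to 450 CPM in IP against 2657 to 2744 CPM and 3916 to 4525 CPM in Input. Of 12 mural and fibroblast markers 5 were lower and 1 higher (11.5 to 17.1 CPM in IP, 34.6 to 43.8 CPM in Input). Of 10 choroid plexus and ependymal markers 9 were tested and 5 were lower (47.2 to 104 CPM and 160 to 821 CPM). Of 10 blood cell markers only 4 were tested and 3 were lower (0.763 to 1.18 CPM and 14.4 to 17.0 CPM). Of the 10, 3, among them the pan-leukocyte gene Ptprc, had 0 counts in IP alone, and another 3 had 0 counts in all 6 libraries. What part the level of these cells has in the values that follow was not tested, and in such bulk samples fewer cells of a type and less RNA per cell cannot be told apart.

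Of the 104 genes, 19 had 0 counts in all libraries, 30 had some counts but too few for a test, and 55 were tested. The test was edgeR's quasi-likelihood test of IP against Input, and a gene was called at an adjusted p under 0.05. Among the 55, 6 (10.9%) were higher in IP, where 23.3% of all genes tested were, and 16 (29.1%) were lower, where 24.3% of all genes were. The test admits a gene when its level passes a minimum in enough libraries. Of the 55, 23 passed it in all 3 Input but not all 3 IP libraries. Another 2, Oas3 and Oas1a, passed it in all 3 IP but not all 3 Input libraries. The direction of all these genes is partly set by that rule. At a mean of at least 1 CPM over all 6 libraries, 5 of 36 (13.9%) were higher, against 28.1% of all genes at that level, and 10 (27.8%) were lower, against 22.0%. The median log2 fold change of these 36 was -0.35, beside 0.07 over all genes at that level. No test of the group as a whole was made. The 3 IP values all lay above the 3 Input values for 10 of the 55 genes and all below them for 20, where 27.9% and 33.7% of all genes tested did so.

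**Figure D1:**
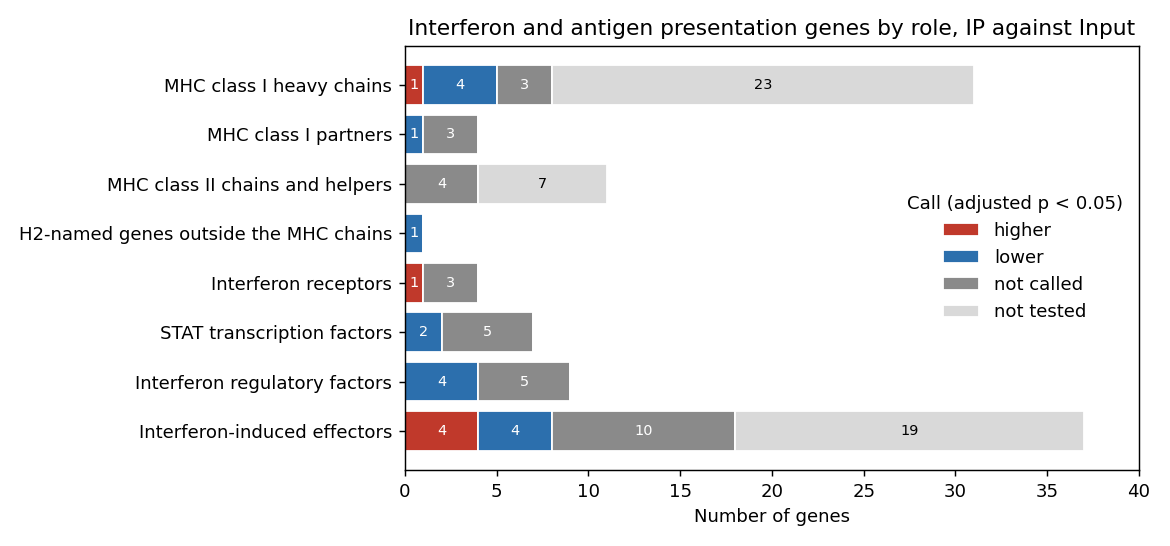
Number of genes in each role (horizontal axis) that were higher in IP, lower in IP, not called, or not tested for want of counts. Class I heavy chains and interferon-induced effectors hold the most genes and most of the untested ones (23 and 19), and of 18 effectors tested 4 were higher and 4 lower, 22.2% each, near the 23.3% and 24.3% of all genes tested.

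MHC class I heavy chains moved in opposite directions. The classical heavy chain genes H2-D1 and H2-K1, whose products show peptides to cytotoxic T cells, were lower in IP, and the non-classical H2-M3, known for showing formylated bacterial peptides, was higher. H2-D1 had 2.76, 3.22 and 4.89 CPM in IP replicates 1 to 3, against 8.38, 9.08 and 9.11 CPM in Input. Each IP library lay below each Input library, for a log2 ratio of IP to Input of -1.29 (SE 0.28, adjusted p = 0.00481). H2-K1 had 1.78, 0.0654 and 0.235 CPM in IP and 5.60, 2.94 and 4.88 CPM in Input (log2 ratio -2.67, SE 0.96, adjusted p = 0.0449). Its IP replicates 2 and 3 rest on 3 and 10 counts, and the call was lost when any 1 Input library or IP replicate 3 was left out (adjusted p between 0.0717 and 0.132). It was also lost without replicate number 2 or 3 in both groups (adjusted p of 0.0813 and 0.224). Without IP replicate 1 the log2 ratio was -4.87.

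H2-M3 had 10.7, 7.78 and 3.58 CPM in IP, against 2.58, 2.43 and 2.35 CPM in Input. The groups did not overlap, although IP replicate 3 lay far closer to Input than the others (log2 ratio 1.59, SE 0.41, adjusted p = 0.0104). Without replicate number 1 or 2 in both groups it missed the threshold (adjusted p of 0.0754 and 0.0761). H2-M3 maps to chromosome 17, plus strand, 37270220 to 37274484 (mm10). H2-T24, a non-classical class I gene, was not called, with 22.3, 19.0 and 15.6 CPM in IP and 20.5, 20.8 and 22.5 CPM in Input (log2 ratio -0.17, SE 0.17, adjusted p = 0.436). Per kilobase of exon it was the most abundant class I heavy chain in both groups (8.68 CPM per kb in IP, 9.76 in Input), ahead of H2-M3 (5.12) in IP and H2-D1 (3.43) in Input.

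Other genes with heavy chain names were scarce. GENCODE M21 lists H2-K2 as a transcribed unprocessed pseudogene and H2-Bl as a polymorphic pseudogene. H2-Bl had 1.28, 1.31 and 1.62 CPM in IP and 0.352, 0.366 and 0.650 CPM in Input, without overlap and without a call (log2 ratio 1.61, SE 0.67, adjusted p = 0.0753). It was called higher with DESeq2 (adjusted p = 0.0224), limma-voom (adjusted p = 0.0406) and without IP replicate 1 (adjusted p = 0.0492). H2-K2 and H2-M10.2 had 0 counts in all IP libraries and 7 to 34 and 9 to 18 counts in Input, and were called lower (adjusted p of 0.00451 and 0.00647). With a floor of 3 counts over the IP group they were at least 23.5-fold and 13.5-fold lower. H2-T23, known as Qa-1, had 0.596 ± 0.251 CPM in IP and 0.868 ± 0.178 CPM in Input (n = 3 each, ± SD, adjusted p = 0.570). Of the 31 heavy chain genes 14 were at 0 in all libraries, among them H2-L, H2-Q4 and H2-Q6. H2-L has no match in GENCODE M21, and a 0 for such genes need not mean that their RNA was absent. H2 genes are near-copies of each other, and reads with several alignments were set aside, which makes their counts uncertain. Of all stretches of 50 bases in the annotated transcripts, 12.8% of H2-D1, 9.63% of H2-K1, 14.5% of H2-T23 and 26.5% of H2-Q7 also occur in another gene, against 3.17% for H2-T24. For H2-Q4 and H2-Q6 the shares were 36.4% and 35.0%.

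The partners of the heavy chains did not move together. B2m, the shared light chain beta-2 microglobulin, had 29.8, 13.4 and 13.6 CPM in IP, against 28.0, 28.8 and 28.3 CPM in Input. IP replicates 2 and 3 lay far below Input, and IP replicate 1 above it, so that the groups overlapped (log2 ratio -0.58, SE 0.29, adjusted p = 0.125). Without IP replicate 1 B2m was called lower (log2 ratio -1.06, adjusted p = 0.000218). It was also called lower with library totals (adjusted p = 0.0289) and with replicate number as a block (adjusted p = 0.0293). Per kilobase B2m stood above every heavy chain, at 22.0 CPM per kb in IP and 33.0 in Input.

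Tap1 and Tap2 encode the subunits of the pump that carries peptides into the endoplasmic reticulum. Tap1 had 0, 1 and 0 counts in IP and 6, 37 and 19 in Input, and was called lower (adjusted p = 0.00646). Its summed counts were 66.1-fold lower in IP, with a 95% counting interval of 11.4 to 2653-fold. Tap2 had 0.0600, 0.0654 and 0.635 CPM in IP and 0.744, 0.50 and 0.823 CPM in Input, with IP replicate 3 inside the Input range (log2 ratio -1.44, SE 1.04, adjusted p = 0.282). Without IP replicate 3 it was called lower (adjusted p = 0.0149). Tapbp, tapasin, which holds the empty class I molecule at the pump, had 10.7, 11.4 and 9.86 CPM in IP and 7.13, 9.20 and 7.63 CPM in Input. Its groups did not overlap, but the difference was not called (log2 ratio 0.42, SE 0.20, adjusted p = 0.118), and 29.0% of its exonic bases overlap other annotated genes, whose reads cannot be told apart without strand.

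Most MHC class II genes were scarce: 7 of 11 had too few counts for the test, and none of the 4 tested was called. Over all genes tested 23.3% were higher and 24.3% lower, shares that so few genes can hardly be set against. H2-DMa and H2-Eb1 alone averaged at least 1 CPM over all libraries. H2-DMa, part of the exchanger that loads class II molecules, had 6.08, 2.96 and 5.27 CPM in IP and 2.35, 4.23 and 3.81 CPM in Input (log2 ratio 0.46, SE 0.39, adjusted p = 0.365), and 10.4% of its exonic bases overlap Brd2. H2-Eb1, a class II beta chain, had 3.68, 1.09 and 1.15 CPM in IP and 0.352, 0.616 and 0.842 CPM in Input. All IP values lay above Input, with replicate 1 well above the others, and the difference was not called (log2 ratio 1.69, SE 0.73, adjusted p = 0.0826). Leaving out IP replicate 2 or 3 gave a call (adjusted p of 0.0423 and 0.0473). Cd74, the invariant chain that escorts class II molecules, had 0.0800, 0 and 0.235 CPM in IP and 0.627, 0.924 and 0.516 CPM in Input (log2 ratio -2.70, SE 1.15, adjusted p = 0.0805). Its groups did not overlap. Cd74 was called lower with DESeq2 (adjusted p = 0.0482), limma-voom (adjusted p = 0.0274) and without IP replicate 3 (adjusted p = 0.0279). H2-Aa, the alpha chain of the main class II molecule of mice, had 0 counts in IP and 3, 15 and 9 in Input, at least 9.60-fold lower. H2-Ke6 carries an H2 name from its place in the region but encodes a hydroxysteroid dehydrogenase. It had 3.98, 6.04 and 4.82 CPM in IP and 8.89, 10.2 and 8.40 CPM in Input (log2 ratio -0.89, SE 0.25, adjusted p = 0.0149), and 86.4% of its exonic bases overlap the gene model Gm20427. Its call was lost without Input replicate 1 or 2 (adjusted p of 0.0508 and 0.0848), and without replicate number 1 or 3 in both groups (0.0611 and 0.0796).

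**Figure D2:**
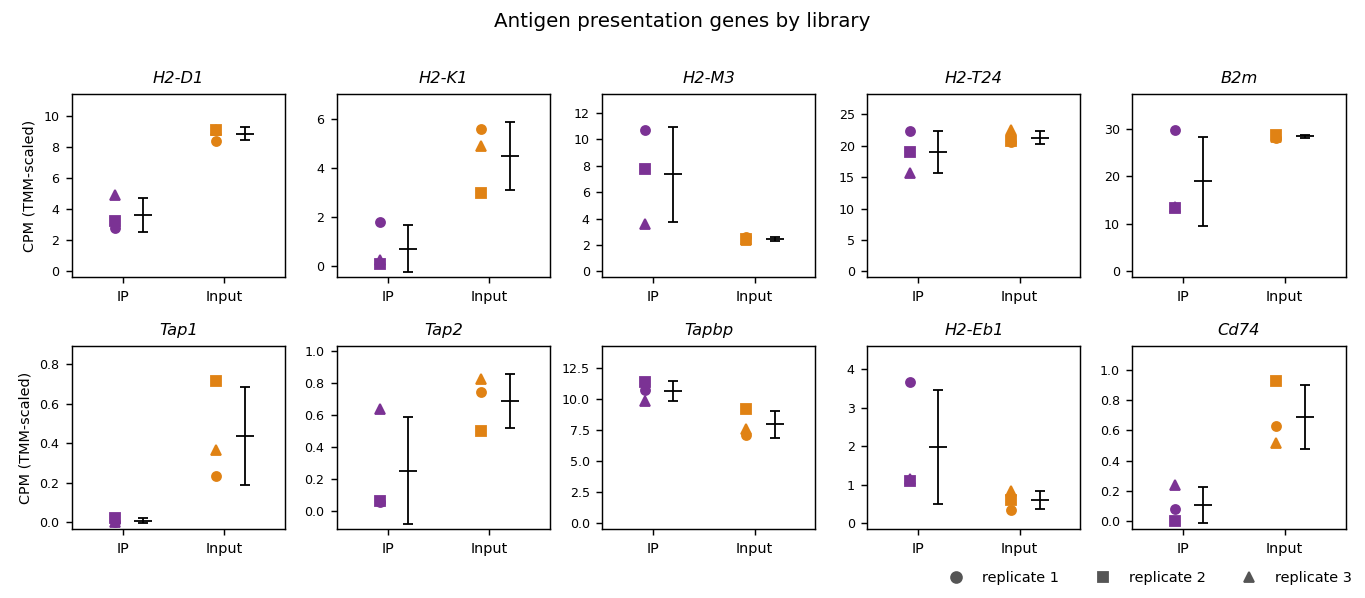
Level of antigen presentation genes in CPM (vertical axes, linear) in 3 IP and 3 Input libraries, with the mean and SD beside the points and a marker shape for each replicate number. H2-D1 and H2-K1 are lower in every IP library, H2-M3 is higher in each, and B2m is low in IP replicates 2 and 3 but not in IP replicate 1.

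Of the 4 interferon receptor chains, Ifngr2 was higher in IP and the other three were not called. Ifngr2, the signalling chain of the interferon gamma receptor, had 71.3, 81.2 and 94.6 CPM in IP, against 41.0, 40.5 and 42.2 CPM in Input. All IP libraries stood well above the narrow Input range, for a 2.0-fold difference (log2 ratio 1.0, SE 0.12, adjusted p = 0.000181), and the log2 ratios within replicate numbers 1 to 3 were 0.80, 1.0 and 1.16. The call held under all 16 alternatives tried. Ifngr2 maps to chromosome 16, plus strand, 91547072 to 91565623 (mm10). Ifngr1, which binds the ligand, had 8.14, 6.89 and 5.27 CPM in IP and 6.27, 6.02 and 5.49 CPM in Input (log2 ratio 0.19, SE 0.25, adjusted p = 0.562). Per kilobase, Ifngr2 reached 21.9 CPM in IP and 11 in Input, and Ifngr1 2.38 and 2.08.

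The type I interferon receptor chains overlapped between groups. Ifnar1 had 22.4, 24.6 and 19.2 CPM in IP and 23.8, 24.2 and 24.4 CPM in Input (log2 ratio -0.13, SE 0.14, adjusted p = 0.486). Ifnar2 had 5.58, 8.06 and 10.7 CPM in IP and 9.24, 10.3 and 8.21 CPM in Input (log2 ratio -0.19, SE 0.27, adjusted p = 0.583). Receptor RNA was thus detected in every library, by at least 160 counts for each of the 4 chains.

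STAT factors carry the signal from receptor to nucleus. Of 7 none was called higher, where 23.3% of all genes tested were, and 7 genes are few to set beside that share. Stat6, which serves interleukin 4 signalling, had 0.980, 1.76 and 0.80 CPM in IP and 6.15, 5.02 and 6.03 CPM in Input (log2 ratio -2.27, SE 0.42, adjusted p = 0.00201).

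Stat2, a factor of type I interferon signalling, had 25.5, 14.1 and 15.0 CPM in IP and 17.0, 16.8 and 16.2 CPM in Input (adjusted p = 0.673). Its IP replicate 1 was above all Input libraries and its other IP replicates below them. Stat3, the factor of interleukin 6 relatives, had 21.1, 34.4 and 21.4 CPM in IP and 39.2, 38.0 and 31.9 CPM in Input (log2 ratio -0.50, SE 0.20, adjusted p = 0.0670). Stat3 was called lower under 8 of 16 alternatives (adjusted p between 0.00260 and 0.0416 in those, and up to 0.332 in the others). Stat5b, used by growth hormone and prolactin receptors, had 24.1, 20.7 and 17.2 CPM in IP and 18.8, 16.8 and 18.7 CPM in Input (log2 ratio 0.19, SE 0.17, adjusted p = 0.382). Stat5a had 2, 17 and 78 counts in IP, against 36, 87 and 50 in Input, and Stat4 had 1, 25 and 1 counts in IP and 9, 20 and 44 in Input. Neither was called (adjusted p of 0.540 and 0.368).

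Of 9 interferon regulatory factors none was called higher, where 23.3% of all genes tested were, and 9 genes are few to set beside that share. Irf2, a factor that can oppose Irf1 at shared sites, had 9.86, 10.7 and 17.7 CPM in IP, against 21.3, 28.0 and 22.4 CPM in Input. The groups did not overlap (log2 ratio -0.91, SE 0.24, adjusted p = 0.0121), but without Input replicate 2 the adjusted p was 0.0625. Without replicate number 1 or 2 in both groups it was 0.0522 and 0.126. Irf5, a factor of myeloid cells, had 0.740, 0.261 and 0.118 CPM in IP and 2.15, 2.35 and 2.12 CPM in Input (log2 ratio -2.55, SE 0.76, adjusted p = 0.0214). Without any 1 Input library Irf5 missed the threshold (adjusted p between 0.0695 and 0.0814), and without IP replicate 1 the log2 ratio was -3.51. It also missed the threshold without replicate number 2 or 3 in both groups (adjusted p of 0.126 and 0.0967).

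Irf3, the factor behind early interferon beta transcription, had 3.92, 8.85 and 11.4 CPM in IP and 8.73, 9.59 and 8.67 CPM in Input (log2 ratio -0.16, SE 0.35, adjusted p = 0.730). Its IP libraries spread on both sides of Input. Irf9, the DNA-binding partner of Stat2 in type I signalling, had 5.20, 4.01 and 5.32 CPM in IP and 5.09, 4.25 and 6.26 CPM in Input (log2 ratio -0.10, SE 0.29, adjusted p = 0.795). Its IP libraries lay within or just below the Input range.

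Irf7 and Irf8 each had 0 counts in 2 of 3 IP libraries. Irf7, a myeloid-enriched amplifier of type I responses, had 3, 0 and 0 counts in IP and 12, 39 and 28 in Input, and its summed counts were 28.1-fold lower (95% counting interval 9.27 to 139, adjusted p = 0.0129). The call was lost without Input replicate 2 (adjusted p = 0.0597), and without replicate number 2 or 3 in both groups (0.0725 and 0.0682). Irf8, a factor of microglia and other myeloid cells, had 0, 22 and 0 counts in IP, against 56, 77 and 108 in Input, and was not called (adjusted p = 0.0624). It was called lower under 7 of 16 alternatives, among them DESeq2 (adjusted p = 0.0145), limma-voom (adjusted p = 0.0047) and leaving out IP replicate 2 (adjusted p = 0.000770). Irf1 (0.479 ± 0.512 CPM in IP, 1.78 ± 0.379 CPM in Input, n = 3 each, ± SD) and Irf4 (0.163 ± 0.266 and 0.829 ± 0.703 CPM) did not pass, and without IP replicate 1 Irf1 was called lower (adjusted p = 0.00609).

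**Figure D3:**
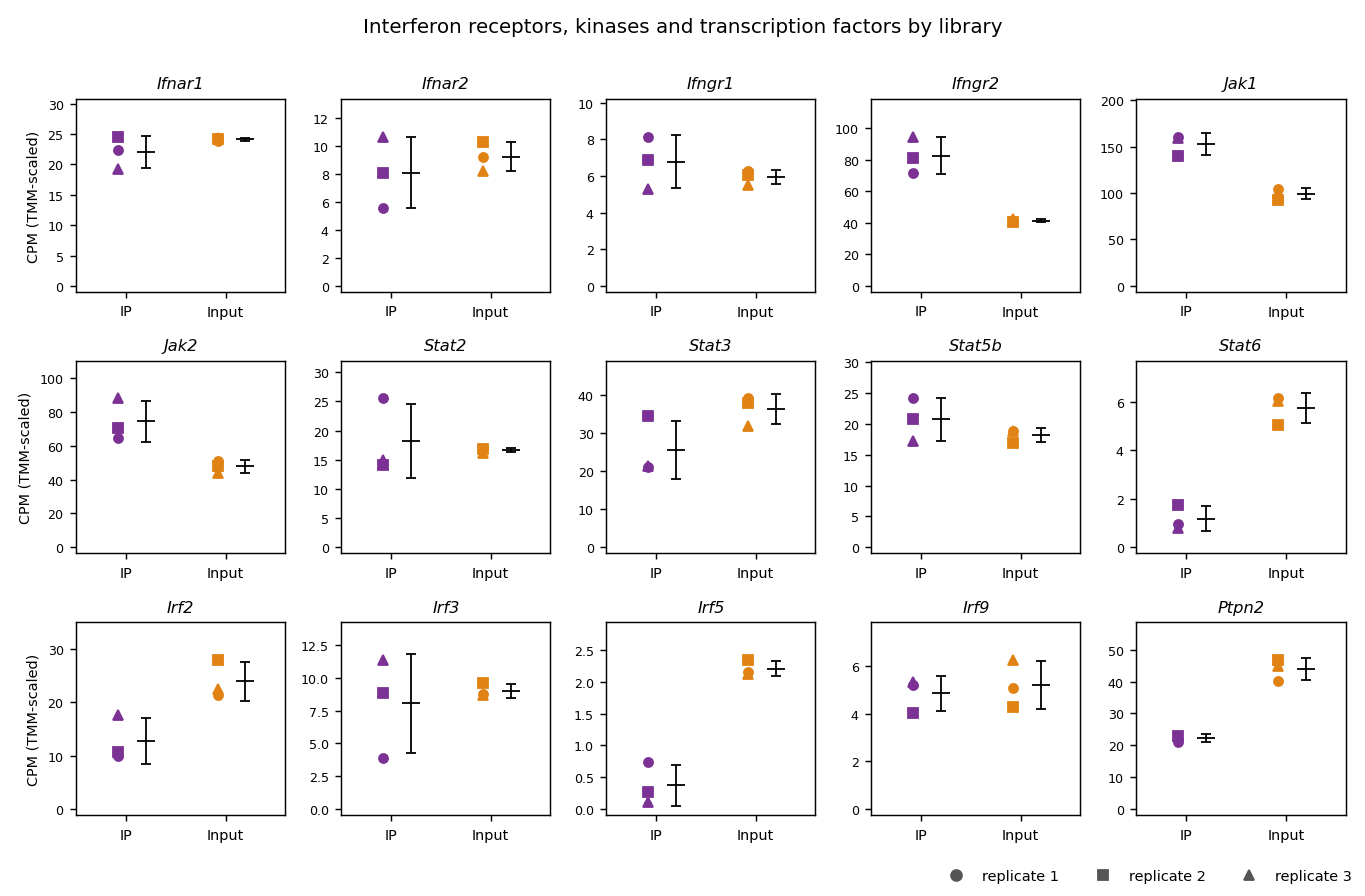
Level of interferon receptors, kinases, transcription factors and the phosphatase Ptpn2 in CPM (vertical axes, linear) in 3 IP and 3 Input libraries, with the mean and SD beside the points. Ifngr2, Jak1 and Jak2 are higher in every IP library, Stat6, Irf2, Irf5 and Ptpn2 are lower in each, and the type I receptor chains overlap.

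Of 37 interferon-induced effectors 18 were tested, and 4 were higher and 4 lower in IP (22.2% each, near the 23.3% and 24.3% of all genes tested). This role follows the gene symbols, and whether each gene, Ifitm10 among them, responds to interferon was not tested. The median log2 fold change of the 18 was -1.22, beside -0.07 over all genes tested. Ifitm10, a relative of the membrane proteins that block virus entry, had 54.7, 47.7 and 48.3 CPM in IP, against 24.9, 21.1 and 22.5 CPM in Input. It was 2.20-fold higher with a narrow spread in both groups (log2 ratio 1.14, SE 0.12, adjusted p = 9.94e-05), and the call held under all 16 alternatives. Ifitm3, the best studied antiviral protein of that family, went the other way, with 0.460, 0.109 and 0.376 CPM in IP and 4.35, 4.79 and 4.28 CPM in Input. It was 14.1-fold lower (log2 ratio -3.81, SE 0.60, adjusted p = 0.000848). Its relatives nearby on chromosome 7 included Ifitm1 and Ifitm6, which were not tested, and Ifitm2, which was not called. Ifitm1 had 0 counts in IP and 3, 38 and 46 in Input, at least 30.9-fold lower on summed counts. Ifitm6 had 0 counts in IP and 4, 6 and 17 in Input. Ifitm2 had 0.639 ± 0.424 CPM in IP and 1.74 ± 0.368 CPM in Input (n = 3 each, ± SD, adjusted p = 0.135), and 48.5% of its 50-base stretches also occur in the gene model Gm45717. Ifitm10 lies apart from them on the same chromosome, at 142325837 to 142373753, while Ifitm3 lies at 141009586 to 141010770 (mm10).

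The 2-5A synthetases sense double-stranded RNA and activate RNase L. In their gene family Oas3 and Oas1a were called higher in IP, and Oasl2 was called lower. Oas3 and Oas1a entered the test through IP, passing its minimum in all 3 IP but not all 3 Input libraries. Oas3 had 3.46, 2.35 and 3.18 CPM in IP, against 0.0392, 0.462 and 0.115 CPM in Input. Input held 1, 24 and 6 counts and IP 173, 108 and 135, so Oas3 was scarce in Input and 13.8-fold higher in IP (log2 ratio 3.78, SE 0.83, adjusted p = 0.00487). Without Input replicate 2 the log2 ratio was 5.14, and without replicate number 3 in both groups the adjusted p was 0.0531. Oas1a had 35, 20 and 12 counts in IP and 1, 3 and 3 in Input (log2 ratio 3.10, SE 0.90, adjusted p = 0.0186). Blocking on replicate number ended its call (adjusted p = 0.126), as did leaving out any 1 Input library (0.0932 to 0.0998) or any 1 replicate number in both groups (0.0564 to 0.0768). Of its 50-base stretches 57.6% also occur in another gene, mainly Oas1g.

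Oas1c had 6.76, 2.96 and 3.06 CPM in IP and 1.49, 1.77 and 2.47 CPM in Input, without overlap and without a call (log2 ratio 1.15, SE 0.47, adjusted p = 0.0677). It was called higher with DESeq2 (adjusted p = 0.0393) and without IP replicate 2 or 3 (adjusted p of 0.0375 and 0.0414). These genes form a cluster on chromosome 5, with Oas3 at 120753098 to 120777661, Oas1c at 120800194 to 120812514 and Oas1a at 120896256 to 120907521 (mm10, all on the minus strand). Oas2, at 120730333 to 120749853 beside Oas3, had 16, 0 and 0 counts in IP and 6, 26 and 18 in Input (adjusted p = 0.341). Oasl2, a relative elsewhere on that chromosome, had 0.480, 0.545 and 0.706 CPM in IP and 4.93, 3.95 and 2.53 CPM in Input (log2 ratio -2.71, SE 0.51, adjusted p = 0.00224).

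Ifi27, a small interferon-inducible membrane protein, had 17.3, 24.5 and 19.1 CPM in IP and 12.6, 13.3 and 11.5 CPM in Input (log2 ratio 0.70, SE 0.18, adjusted p = 0.0112). The call was lost with library totals (adjusted p = 0.0811) and without Input replicate 3 (adjusted p = 0.0541). It was also lost without replicate number 2 or 3 in both groups (adjusted p of 0.0601 and 0.0735). Eif2ak2, the kinase PKR that halts translation on sensing double-stranded RNA, had 2.3, 2.14 and 3.69 CPM in IP and 8.61, 9.68 and 8.76 CPM in Input. All IP libraries lay below Input (log2 ratio -1.74, SE 0.30, adjusted p = 0.00128). Bst2, tetherin, had 0 counts in IP and 11, 18 and 14 in Input, at least 15.3-fold lower (adjusted p = 0.00549).

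Several widely used markers of an interferon response were not called. Ifit2, an RNA-binding antiviral protein, had 12.6, 11.7 and 17.5 CPM in IP and 16.4, 13.3 and 17.4 CPM in Input (log2 ratio -0.17, SE 0.21, adjusted p = 0.527). Isg15, a ubiquitin-like modifier, had 0.0800, 0.981 and 0.447 CPM in IP and 0.705, 0.943 and 1.66 CPM in Input (adjusted p = 0.343). Ifit1 had 66, 6 and 19 counts in IP and 44, 53 and 101 in Input (adjusted p = 0.242), and was called lower without IP replicate 1 (adjusted p = 0.0260). Ifit3 had 3, 30 and 146 counts in IP and 127, 168 and 195 in Input (adjusted p = 0.233), and was called lower without IP replicate 3 (adjusted p = 0.0132), with 51.2% of its 50-base stretches shared with another gene, mainly Ifit3b. A member of the Ifi27 family, Ifi27l2a, had 132, 10 and 72 counts in IP and 9, 15 and 27 in Input (adjusted p = 0.108).

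**Figure D4:**
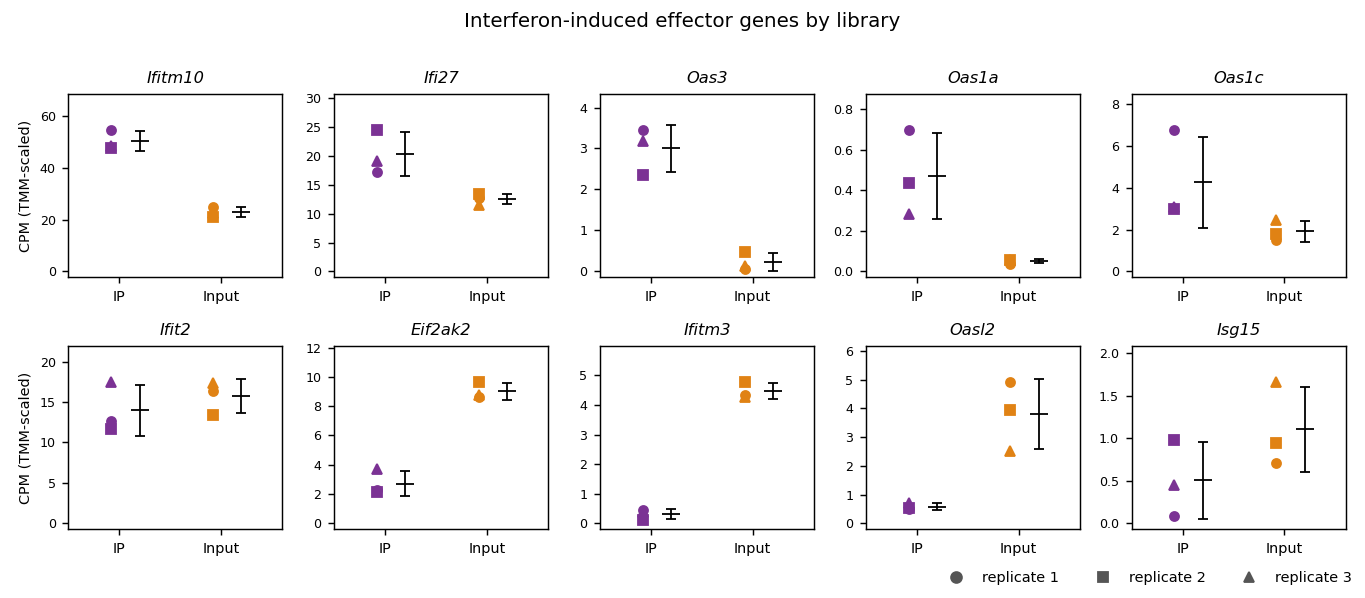
Level of interferon-induced effector genes in CPM (vertical axes, linear) in 3 IP and 3 Input libraries, with the mean and SD beside the points. Ifitm10, Ifi27, Oas3 and Oas1a are higher in every IP library, Eif2ak2, Ifitm3 and Oasl2 are lower in each, and Ifit2 and Isg15 overlap.

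Promoter letters were set beside these directions because interferons act through 2 classical elements: the interferon-stimulated response element, searched as GAAA, any 2 bases, then GAAA, and the gamma-activated site, searched as TTCNNNGAA. Both were searched on both strands, in RefSeq promoters (GRCm38.p6) from 250 bases before to 50 bases after each annotated start. Of 32851 promoters 3.44% held the first motif and 8.30% the second, and by gene 3.99% and 9.55% of 27025. Of the 104 members 81 had a promoter in the table, and 19 (23.5%) and 16 (19.8%) of them held each motif. The first motif stood in 2 of 5 members called higher, 4 of 13 called lower and 9 of 26 not called, so it occurred in each class. A match is a description of the letters and not a site of action.

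The windows below run from 200 bases before the start to 30 after it, on the strand of the gene, with each motif match in capitals. They show the element in a gene that was higher in IP (Oas3, chr5:120777630-120777859, minus), in 2 that were lower (Eif2ak2, chr17:78882543-78882772, minus, and Ifitm3, chr7:141010715-141010944, minus) and in 2 that were not called (Isg15, chr4:156200789-156201018, minus, and B2m, chr2:122147487-122147716, plus). Ifngr2 (chr16:91546859-91547088, plus), which was higher, has neither motif in this window.
Oas3: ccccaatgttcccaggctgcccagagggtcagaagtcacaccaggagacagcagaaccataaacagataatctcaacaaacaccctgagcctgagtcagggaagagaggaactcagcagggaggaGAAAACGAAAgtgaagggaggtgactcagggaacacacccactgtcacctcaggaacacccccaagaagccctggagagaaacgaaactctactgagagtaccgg
Eif2ak2: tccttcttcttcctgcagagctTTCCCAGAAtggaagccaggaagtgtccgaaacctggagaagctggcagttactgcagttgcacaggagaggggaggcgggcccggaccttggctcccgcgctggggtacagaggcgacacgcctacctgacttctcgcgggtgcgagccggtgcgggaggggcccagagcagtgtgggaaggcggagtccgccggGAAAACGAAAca
Ifitm3: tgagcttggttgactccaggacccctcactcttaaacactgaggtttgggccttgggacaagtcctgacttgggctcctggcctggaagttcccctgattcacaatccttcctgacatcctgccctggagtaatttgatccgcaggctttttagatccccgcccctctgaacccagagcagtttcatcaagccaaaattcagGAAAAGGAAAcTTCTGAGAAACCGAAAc
Isg15: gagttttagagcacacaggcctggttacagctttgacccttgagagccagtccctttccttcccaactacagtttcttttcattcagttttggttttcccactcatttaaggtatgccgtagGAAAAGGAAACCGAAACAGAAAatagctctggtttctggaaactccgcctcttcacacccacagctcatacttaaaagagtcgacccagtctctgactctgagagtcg
B2m: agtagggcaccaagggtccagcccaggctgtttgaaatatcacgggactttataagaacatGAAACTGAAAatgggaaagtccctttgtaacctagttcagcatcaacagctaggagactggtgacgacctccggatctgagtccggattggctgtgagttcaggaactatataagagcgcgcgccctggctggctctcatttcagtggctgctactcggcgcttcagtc
Ifngr2: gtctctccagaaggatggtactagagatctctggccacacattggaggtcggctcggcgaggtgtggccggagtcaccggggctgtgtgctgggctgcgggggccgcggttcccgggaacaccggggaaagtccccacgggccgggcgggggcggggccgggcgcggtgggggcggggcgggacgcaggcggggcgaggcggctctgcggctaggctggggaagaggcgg
Isg15 holds 3 overlapping matches to the first motif, and Ifitm3 holds 2 with a match to the second that overlaps one of them. The capitals early in the Eif2ak2 window match the second motif and those at its end the first.

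Other genes of the pathway were taken from lists that hold no member, 72 genes in all. Of 60 tested, 11 were higher (18.3%) and 18 lower (30%) in IP, where 23.3% and 24.3% of all genes tested were, and the counts of the single lists below stand against those same shares. JAK kinases and brakes on the pathway had 3 higher and 1 lower of 7. Jak2 averaged 74.3 ± 12.2 CPM in IP and 47.8 ± 3.64 CPM in Input (n = 3 each, ± SD, log2 ratio 0.64, SE 0.13, adjusted p = 0.00396), and Jak1, which serves both receptor types, averaged 153 ± 11.8 and 99.4 ± 5.92 CPM (adjusted p = 0.000669). The phosphatase Ptpn2, which removes the activating phosphates from JAK and STAT proteins, averaged 22.3 ± 1.12 CPM in IP and 44.0 ± 3.43 CPM in Input (log2 ratio -0.98, SE 0.12, adjusted p = 0.000213). Socs1, an inhibitor induced by the pathway itself, averaged 1.67 ± 0.218 CPM in IP and 0.310 ± 0.111 CPM in Input (adjusted p = 0.0153).

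Sensors of foreign RNA and DNA had 6 lower and none higher of 13. Tlr3, the endosomal receptor for double-stranded RNA, averaged 0.492 ± 0.258 CPM in IP and 6.37 ± 1.37 CPM in Input (log2 ratio -3.68, SE 0.49, adjusted p = 0.000320). Its adaptor Ticam1 (adjusted p = 0.00125) and the mitochondrial adaptor Mavs (1.32 ± 0.817 and 9.21 ± 0.303 CPM, adjusted p = 0.000710) were lower as well. Among other interferon-stimulated genes 2 were higher and 9 lower of 24. Irgm1, an immunity-related GTPase, averaged 7.70 ± 2.67 CPM in IP and 3.25 ± 0.311 CPM in Input (log2 ratio 1.24, SE 0.33, adjusted p = 0.0115). Adar, which edits adenosines in double-stranded RNA, averaged 167 ± 20.6 CPM in IP and 96.5 ± 3.0 CPM in Input (adjusted p = 0.000295). Xaf1, a pro-apoptotic interferon target, averaged 0.820 ± 0.804 CPM in IP and 7.46 ± 1.88 CPM in Input (log2 ratio -3.17, SE 0.69, adjusted p = 0.00472).

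Genes for peptide supply and MHC assembly had 4 higher and 1 lower of 11. Psme2, part of the activator that opens the proteasome, averaged 16.4 ± 1.91 CPM in IP and 8.75 ± 0.609 CPM in Input (log2 ratio 0.90, SE 0.18, adjusted p = 0.00300), while the chaperone Canx was slightly lower (185 ± 18.8 and 232 ± 8.45 CPM, adjusted p = 0.0178). The immunoproteasome subunits differed among themselves: Psmb10 was higher (34.2 ± 1.48 and 22.5 ± 2.71 CPM, adjusted p = 0.00551), and Psmb8 (0.208 and 0.748 CPM) and Psmb9 (0.204 and 0.866 CPM) were scarce and not called. Regulators of MHC transcription had 2 higher and 1 lower of 5. Rfx5, a DNA-binding part of the MHC promoter complex, averaged 46.6 ± 3.38 CPM in IP and 32.1 ± 1.92 CPM in Input (log2 ratio 0.54, SE 0.12, adjusted p = 0.00447). Nlrc5, the coactivator of class I genes, had 0 counts in IP and was at least 29.2-fold lower (adjusted p = 0.00462). Of 7 interferon genes looked for, 6, among them Ifnb1 and Ifng, were at 0 counts in all 6 libraries, and Ifnk had 1 count in Input replicate 3. A count of 0 allows up to 3 counts in a library.

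**Figure D5:**
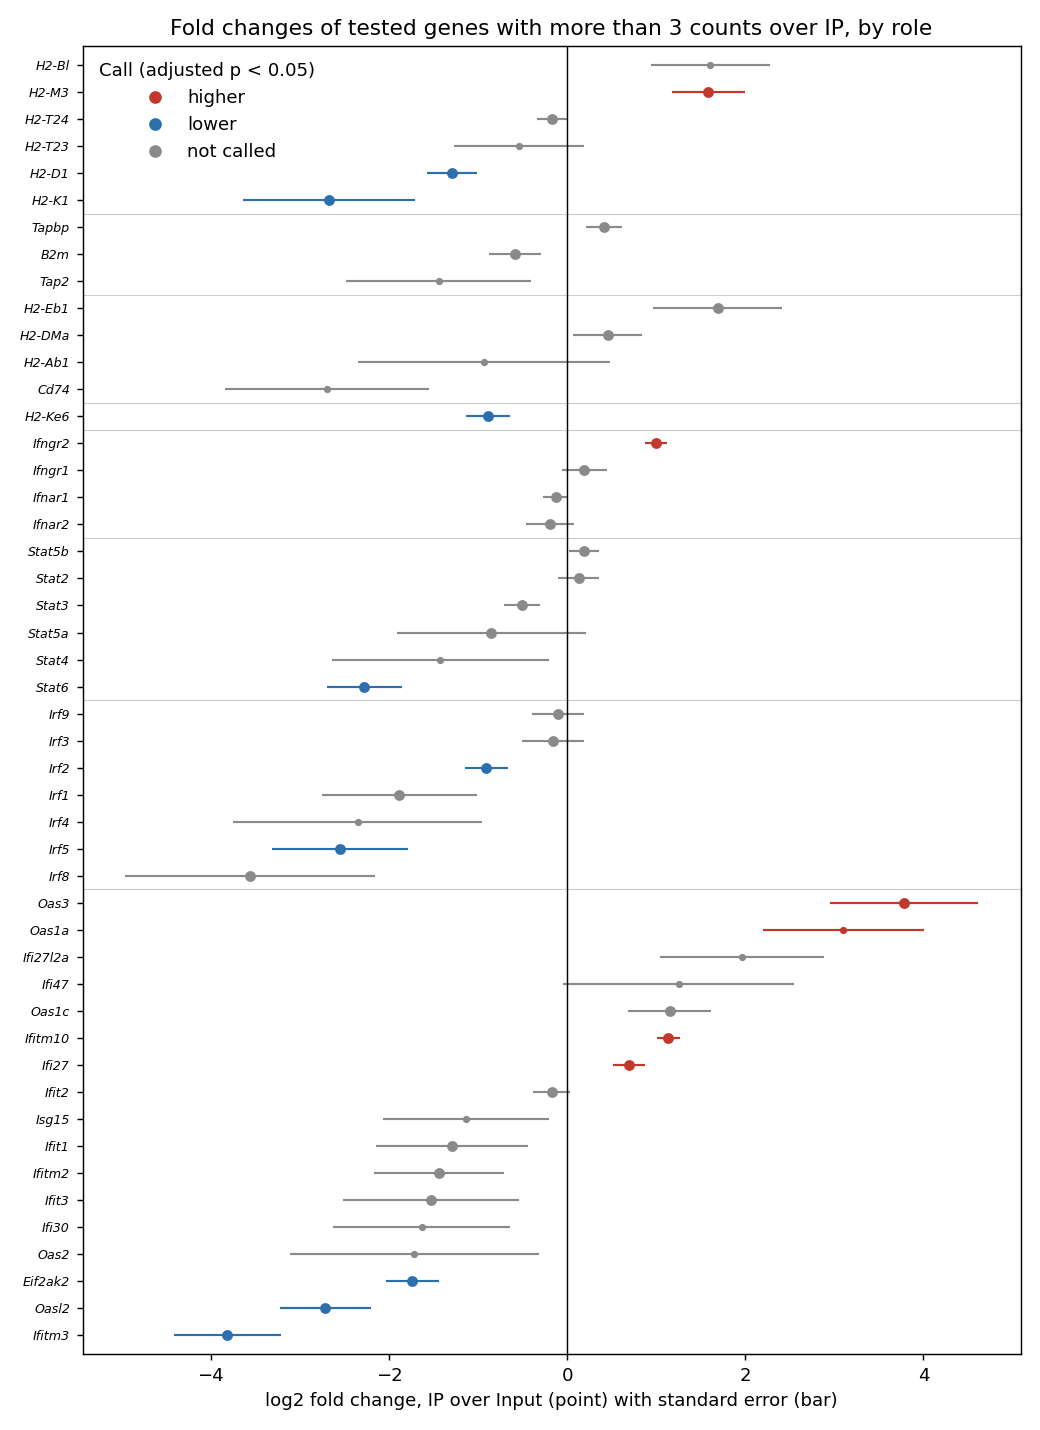
Log2 fold change of IP over Input (horizontal axis) with its standard error for tested members with more than 3 counts over the IP group, grouped by role from class I heavy chains at the top to effectors at the bottom. Larger points have a mean of at least 1 CPM. The regulatory factors lie below 0, and the effectors span the widest range in both directions, with Oas3 at 3.78 and Ifitm3 at -3.81.

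Replicates differed more within IP than within Input. At a mean of at least 1 CPM the coefficient of variation was larger in IP for 31 of 36 members, with a median of 33.8% in IP and 10.8% in Input. Over all genes at that level it was larger in IP for 83.4%, with medians of 18.8% in IP and 8.40% in Input. Where both group means were at least 10 CPM, the median over 12 members was 20.5% in IP and 6.74% in Input, and 13.4% and 6.01% over all genes. B2m had the tightest Input values after Ifnar1 (1.44% and 1.08%) and a coefficient of 49.7% in IP. IP replicate 3 was the farthest from the other IP libraries for 16 of the 36 members, and replicates 1 and 2 for 10 each, while IP replicate 1 was the highest for 17. Over all genes with enough counts, the IP pairs that hold replicate 1 differed most. Their chi-square per degree of freedom was 141 and 97.9, against 44.2 for IP replicates 2 and 3.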

How the data were processed

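The measurement was RNA-seq of 3 IP and 3 Input libraries of mouse thalamus. The deposited values are the authors' raw counts of reads by gene in each library. STAR 2.0.0e, HTSeq and the mm10 build are named per the submitters' processing notes. The strand setting and the annotation are not given in the sources used here. The 6 closing lines that name no gene were left out. Of all lines, not uniquely aligned reads made up 43.2 to 49.7% in IP and 32.7 to 34.0% in Input.

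Groups and replicate numbers came from the titles. In R 4.3.3 with edgeR 4.0.16, 16898 genes passed filterByExpr (minimum count 10), were given TMM scaling (trimmed mean of M-values) and tested by the robust quasi-likelihood F-test with Benjamini-Hochberg adjustment over all of them. Adjusted p-values are from this test. CPM are TMM-scaled, and standard errors (SE) come from the F statistic. Values per kilobase and overlaps use the exons of GENCODE M21 (the same build), which held 101 of the 104 symbols under 1 gene each. Fold bounds set IP at 3 counts over the group and take the summed Input counts as they stand. The bounds thus leave out the counting error of Input and the spread between replicates. Ratios of 1 to 3 counts have exact conditional intervals, which cover counting error only.

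Alternatives were DESeq2 1.42.0, limma-voom 3.58.1, other scalings and filters, a replicate block and leaving out libraries. The members and lists were chosen with earlier results of these data known. Members with a mean of at least 1 CPM that were called, and the 3 most abundant tested members of each role, were named by rule, as was the most changed called gene with a mean of at least 1 CPM in each direction of each further list. All others were named after their values were seen, Jak1, Socs1, Ticam1, Mavs, Adar, Psmb10 and Nlrc5 among them. Replicate pairs differed by more than sampling noise (chi-square per degree of freedom 12.3 to 141). Some members are counted in the group totals but not reported here by name.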

Additional observations from a re-analysis of the deposited data

How the results depend on the processing

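Each result was recomputed under 16 alternatives. Of members called higher, 2 of 6 (Ifngr2 and Ifitm10) kept their call in all of them, and of members called lower 11 of 16 did, among them H2-D1, Stat6, Eif2ak2, Ifitm3, Oasl2, Bst2, H2-K2, H2-M10.2 and Tap1. No called member changed sign. Of 25 members followed that were not called, 6 kept both their sign and the lack of a call in all alternatives. The count of members called lower, 16 in the comparison as reported, was 26 with DESeq2 and 25 with no low-count filter, which tested 71 and 85 members. With 1 library or 1 replicate number left out it ran from 11 (without Input replicate 2) to 25 (without IP replicate 1), and the count of members called higher ran from 3 (without replicate number 2 or 3) to 9.

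Over all genes, library totals called 2464 higher, against 3930 with TMM, and calls were then 32.0% higher, against 48.9% (36.7% with upper-quartile scaling). The median of all genes was -0.31 with library totals and -0.25 with upper-quartile scaling, against -0.07. Signs that turned belonged to genes not called. Stat2 was at -0.043 with upper-quartile scaling and -0.12 with library totals, which also gave -0.053 for Stat5b and -0.050 for Ifngr1. With 1 library or replicate number left out, signs turned within ranges of -0.18 (IP replicate 1 out) to 0.30 for Stat2, -0.32 to 0.0071 (replicate number 3 out) for H2-T24, -0.51 to 0.028 (IP replicate 1 out) for Ifnar2, -0.51 to 0.18 (IP replicate 1 out) for Irf3 and -0.22 to 0.061 (Input replicate 3 out) for Irf9. The cause was not tested.

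IP and Input of 1 replicate number share a sequencing lane. Deviations from the group means correlated by 0.10, 0.04 and 0.02 in pairs 1 to 3. IP replicates 1 and 2 each correlated most with the Input library of their own number, while IP replicate 3 correlated more with Input replicate 2 (0.03). IP replicate 1 stood at -0.07 and -0.05 with Input replicates 2 and 3. All these values were weak, and the main test did not treat the numbers as pairs. Such correlations cannot show that a shared lane had no effect. With the replicate block 5 members were called higher and 19 lower. Members under a few counts per library are limited by depth.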

Other observations

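Of the 30 members with counts but too few for the test, 18 (60.0%) had 0 counts in all IP libraries, close to the 58.7% of all untested genes with counts. Another, the class II gene H2-Eb2, had 12 and 9 counts in IP replicates 2 and 3 and 0 in Input. Ifi204, a DNA sensor of myeloid cells, had 0 counts in IP and 5, 2 and 30 in Input, at least 13.2-fold lower. Its relative Ifi203 had 2 counts over IP and 63 over Input (33.6-fold lower, 95% counting interval 8.92 to 284). Oasl1, a regulator of Irf7 translation, had 0 counts in IP and 4, 2 and 19 in Input, at least 8.89-fold lower. Ifitm7, on chromosome 16 and apart from the other Ifitm genes, had 3 counts over IP and 61 over Input (21.7-fold lower, interval 7.08 to 108). Oas1b, in the chromosome 5 cluster, had 1, 11 and 12 counts in IP and 1, 6 and 9 in Input. These comparisons rest on summed counts and were not tested across replicates.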
